A study of Arabidopsis thaliana with 6 samples.

Results

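Tau-class glutathione S-transferases were represented by 11 probe sets, each for a different gene, of the 22746 probe sets on the Arabidopsis ATH1 array that are not controls. The annotation names 13356 genes through a probe set of their own. They were every probe set that the platform annotation names with a single gene whose symbol is GSTU followed by a number. All 11 matched TAIR10.1 of RefSeq by gene number, where each has the same symbol. RefSeq names 28 tau-class genes, counting ERD9, which is GSTU17. The other 17 have no singly named probe set in the annotation and were not analysed here, among them GSTU19 and GSTU24.

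The samples were siliques, the seed pods of Arabidopsis thaliana, of the accession Col-1, grown on compost in a glasshouse with the light on all day. Total RNA of 3 young-pod and 3 old-pod samples was hybridised, 1 sample to an array. No sample carries a mutation, transgene or treatment according to the labels, which also give 1 developmental stage and 1 tissue, mature and senescing pods, for all 6. The titles alone separate young from old, the sources used here do not give the age of a pod, and no label states separate plants, so the p-values measure only the spread between these samples, which may be technical.

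Glutathione S-transferases join the tripeptide glutathione to reactive or foreign molecules, which marks them for removal to the vacuole, and some reduce peroxides or carry small molecules instead. The tau class is a plant family with many members, several of which are known for conjugating herbicides and for their induction by stress, wounding and oxylipins. Many tau-class genes lie in tandem runs on the chromosomes. In senescing tissue lipid breakdown releases oxidised products of the kind that such enzymes handle, which were not measured here.

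Among the 11 genes, GSTU20 was higher in old pods, GSTU15 and GSTU26 were lower, GSTU16, GSTU18, GSTU27 and GSTU28 did not pass the test, and GSTU21, GSTU22, GSTU23 and GSTU25 were too dim to be tested. The values are signals on a linear scale that were scaled to the same average on every array. Testing required a signal above the 40th percentile of the array on at least 3 of the 6 arrays. That percentile was a signal of 32.5 to 36.5 on young arrays and 24.3 to 34.5 on old arrays. Signals of different probe sets depend on how well each binds its transcript, so no order of abundance among the 11 genes is drawn from them. Changes are old against young, on the log2 scale, with the standard error (SE) and adjusted p of limma, and 0.05 was the threshold.

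**Figure D1:**
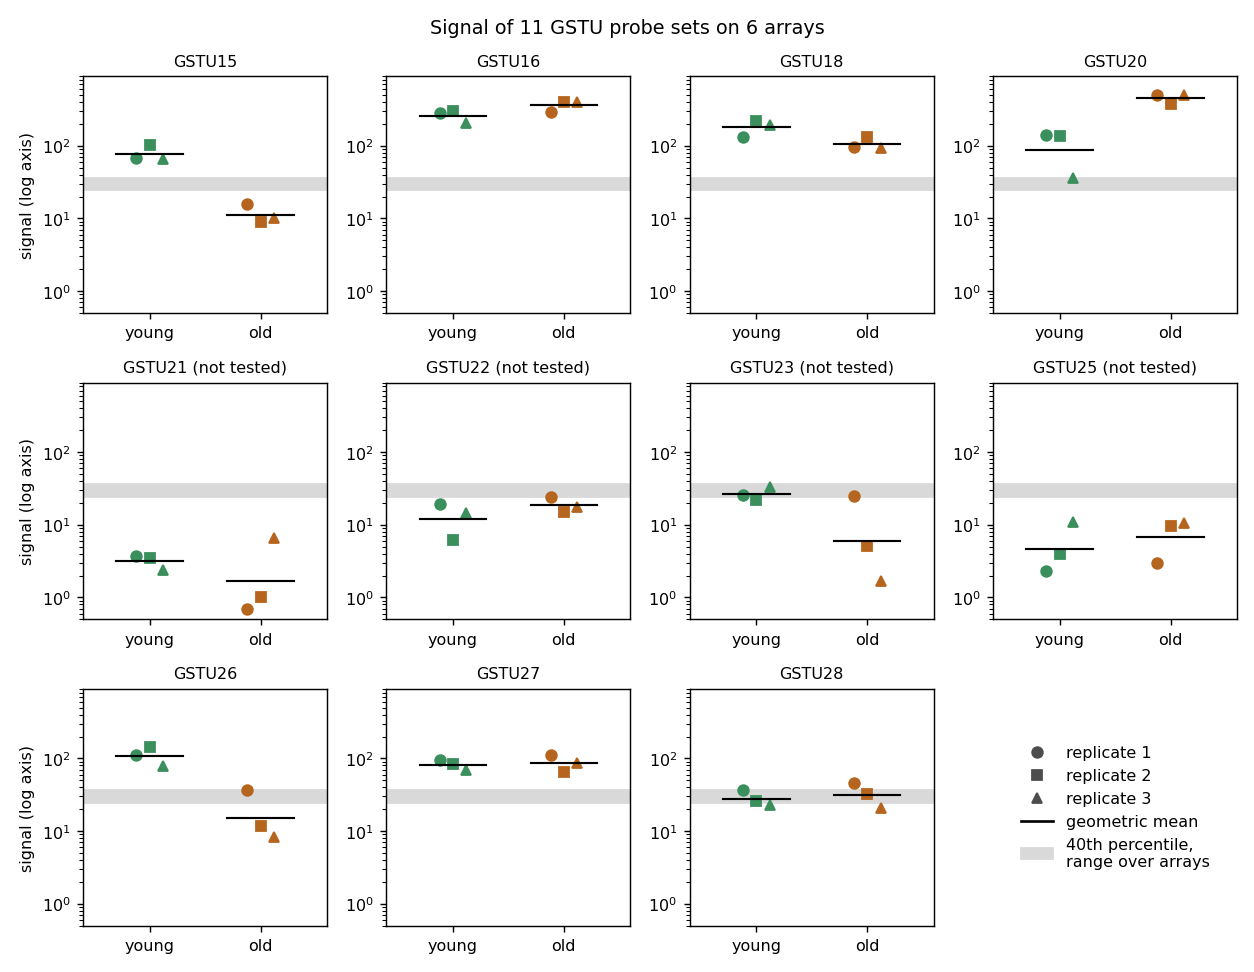
Signal of each of the 11 GSTU probe sets (vertical log axis) in young and old pods, with 1 point per array, the marker shape giving the replicate number and the black line the geometric mean of 3 arrays. The grey band is the range of the 40th percentile over the 6 arrays. GSTU20 lies higher in all 3 old arrays, GSTU15 and GSTU26 lie lower, and GSTU21, GSTU22, GSTU23 and GSTU25 stay under the percentile of their own array throughout.

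The 7 tested members held 1 gene called higher and 2 called lower. Over all 14277 tested probe sets, 22.0% were called, 9.68% higher and 12.3% lower in old pods. The share among 7 genes was not tested against that background. The signals of the young and old groups did not overlap for 4 of the 7, against 40.9% of all tested probe sets. The median change of the 7 was 0.06, beside -0.08 over all tested probe sets. Without the filter the median of all 11 was 0.06, beside -0.16 over all 22746. Both medians of the members are the change of GSTU27 itself. The median of 11 also draws on the 4 untested members, which were under the percentile on all arrays and have no measured change. The medians near 0 come with members that moved in opposite directions.

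GSTU20 (locus AT1G78370, chromosome 1) encodes a transferase known to bind FIN219, also called JAR1, the enzyme that joins jasmonic acid to isoleucine, and it has been linked to aliphatic glucosinolate synthesis. Its signal was 138.7, 134.1 and 35.5 on young arrays 1 to 3 and 503.2, 380.7 and 504.3 on old arrays 1 to 3. Every old array was above every young array, and young replicate 3 was far below the other two young arrays. GSTU20 rose 5.27-fold (log2 change 2.40 with an SE of 0.50 over 3 arrays a group, limma adjusted p = 0.0126), and 323 of the tested probe sets had a larger rise. Between arrays of the same replicate number the rise was 3.63-fold, 2.84-fold and 14.2-fold. Without young replicate 3 the rise was 3.36-fold and still passed (limma adjusted p = 0.00402). It also passed without each other array, but without old replicate 3 only just (limma adjusted p = 0.0483). The call ended when arrays were scaled on hybridisation controls (limma adjusted p = 0.152) and in an ordinary two-sample test (adjusted p = 0.104).

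GSTU26 (AT1G17190, chromosome 1) is a tau-class gene whose transcript is known to respond to chloroacetanilide herbicides and to cold. Its signal was 112.1, 145.7 and 79.8 on young arrays 1 to 3 and 36.4, 11.6 and 8.2 on old arrays 1 to 3. All old arrays were below all young arrays, and the last 2 old values were under the percentile of their array while old replicate 1 was just above it. GSTU26 was 7.22-fold lower in old pods (log2 change -2.85 with an SE of 0.55 over 3 arrays a group, limma adjusted p = 0.00947). If low signals were set to the percentile of their array, the fall was 3.88-fold and passed (limma adjusted p = 0.00216). Without old replicate 1 every remaining old array was under the percentile, so the fall has only a bound there, at least 4.41-fold (limma adjusted p = 0.000673 on the signals as deposited). GSTU26 also passed without each other array, but without young replicate 2 only just (limma adjusted p = 0.0457). An unmoderated two-sample test did not call it (adjusted p = 0.0852).

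GSTU15 (AT1G59670, chromosome 1) fell in the same way. Its signal was 67.5, 103.5 and 65.3 on young arrays 1 to 3 and 15.7, 8.9 and 10.0 on old arrays 1 to 3. The groups did not overlap, and every young array was above its percentile while every old array was under it, so that old pods give only an upper limit. GSTU15 was at least 2.78-fold lower in old pods, taking the percentile as the level of the old arrays, and the measured log2 change was -2.78 (SE 0.38, limma adjusted p = 0.00247). That bound lay between 2.40-fold and 3.11-fold when single arrays were left out. The call held in all 16 alternative settings, with an adjusted p of at most 0.0317.

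**Figure D2:**
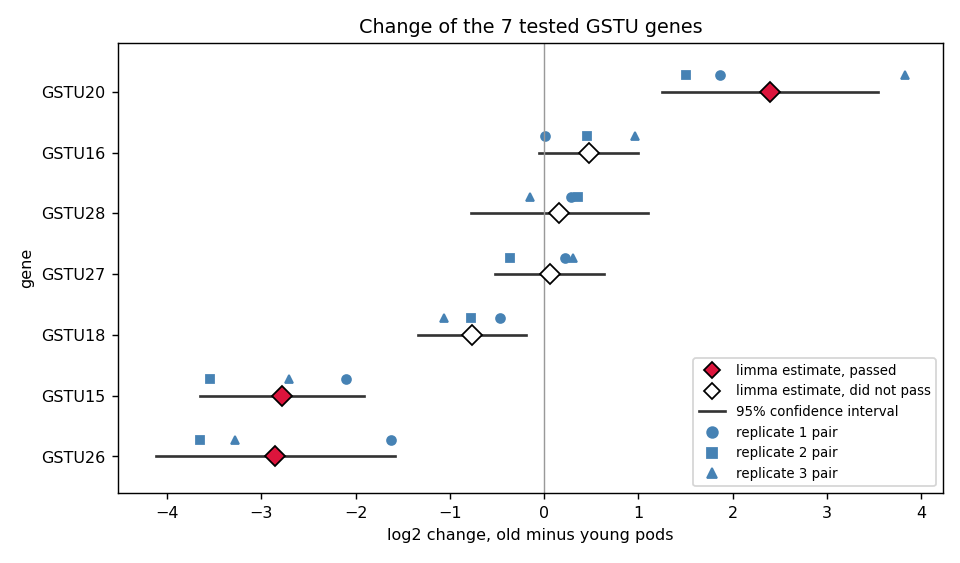
Log2 change, old minus young pods, of the 7 tested GSTU genes (horizontal axis), with the limma estimate as a diamond, its 95% confidence interval as a line, and the change within each pair of arrays of the same replicate number as small points above it. The intervals of GSTU20, GSTU15 and GSTU26 lie clear of 0 and these genes passed after adjustment. The interval of GSTU18 also lies below 0, but its adjusted p was 0.0616.

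The 4 tested genes that did not pass differed in how closely the change was bounded. GSTU18 (AT1G10360), once named GST29, had a signal of 133.8, 222.2 and 193.7 on young arrays 1 to 3 and 96.8, 130.0 and 92.6 on old arrays 1 to 3. Its groups did not overlap, although old replicate 2 lay only just below young replicate 1. The log2 change was -0.77 (SE 0.25, 95% confidence interval -1.34 to -0.19, limma adjusted p = 0.0616). With the replicate number as a block GSTU18 passed (limma adjusted p = 0.0375), in a fit that called 24.4% of the tested probe sets. Beside that, replicates 2 and 3 alone, a term for replicate 1 and the fit without young replicate 1 also called it (limma adjusted p = 0.03, 0.0297 and 0.0279). Those fits called 3936, 4197 and 2722 of all tested probe sets, beside 3145 in the reported fit. In the other 12 of the 16 alternative settings GSTU18 did not pass. Among these were median centring (log2 change -0.51, limma adjusted p = 0.253) and the fit without young replicate 2 (limma adjusted p = 0.199).

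GSTU16 (AT1G59700) had a signal of 285.5, 297.0 and 207.8 on young arrays 1 to 3 and 287.8, 405.5 and 403.9 on old arrays 1 to 3. The groups overlapped because old replicate 1 was at the level of the young arrays. Its log2 change was 0.47 (SE 0.23, 95% confidence interval -0.05 to 1.00, limma adjusted p = 0.177), so the interval reaches a rise of 2.00-fold. It passed in none of the 16 alternative settings, which gave changes of 0.31 to 0.73.

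GSTU27 (AT3G43800), the only member outside chromosome 1, had a signal of 94.5, 83.3 and 70.1 on young arrays 1 to 3 and 110.3, 65.0 and 86.8 on old arrays 1 to 3. The groups overlapped, with old pods on both sides of the young range. The log2 change was 0.06 (SE 0.25, 95% confidence interval -0.52 to 0.63, limma adjusted p = 0.895), which leaves room for a change of up to 1.55-fold upward. GSTU28 (AT1G53680) sat at the edge of detection, with 37.3, 25.7 and 22.8 on young arrays 1 to 3 and 45.3, 32.9 and 20.5 on old arrays 1 to 3. It was above the percentile on 1 young and 2 old arrays. Its log2 change was 0.16 with a 95% confidence interval of 0.584-fold to 2.14-fold (SE 0.41, limma adjusted p = 0.813), the widest of the 4 that did not pass.

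**Figure D3:**
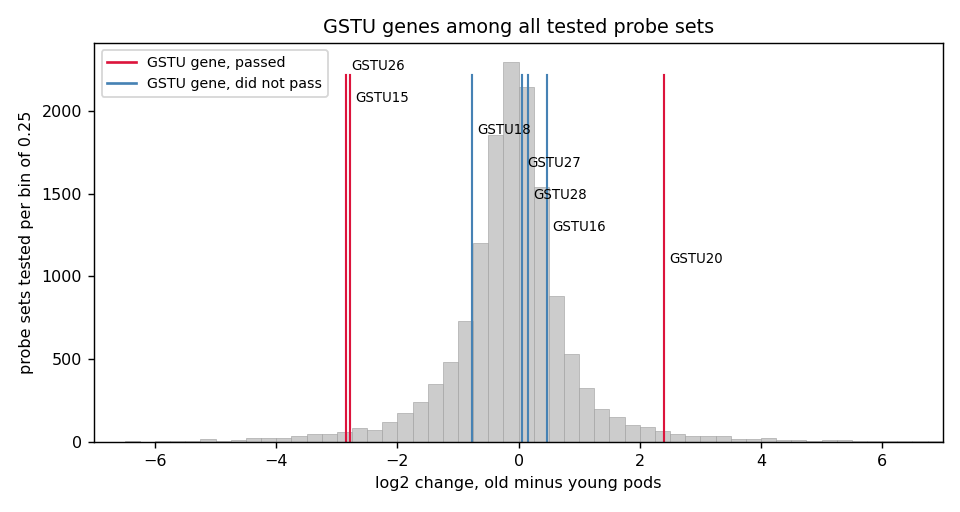
Number of tested probe sets (vertical axis) by log2 change, old minus young pods, in bins of 0.25 (horizontal axis), with the 7 tested GSTU genes as vertical lines, red where the gene passed. GSTU20 stands in the upper tail and GSTU15 and GSTU26 in the lower tail, while GSTU16, GSTU27 and GSTU28 lie near the centre. The place of GSTU15 rests on old signals under the percentile. That of GSTU26 does so in part, since only 1 old array was above it.

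The 4 untested members were under the percentile on all 6 arrays, so neither group has a measured level and no change is given. GSTU21 (AT1G78360) had the dimmest signals, 0.7 to 6.6 over all arrays. GSTU25 (AT1G17180), which in this species is known to act with GSTU24 on the explosive TNT, had signals of 2.3 to 10.9, and GSTU22 (AT1G78340) 6.2 to 24.2. GSTU23 (AT1G78320) came closest to detection in young pods, where its signal was 25.5, 22.1 and 32.9. On old arrays 1 to 3 the GSTU23 signal was 24.9, 5.1 and 1.7, so that old replicate 1 lay at the young level and the other two far below. With the filter on low signals removed, none of the 4 passed (limma adjusted p from 0.163 for GSTU23 to 0.726 for GSTU25).

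Only some of the chromosomal neighbours among the 11 genes were detected. In the RefSeq order of protein-coding genes GSTU20, GSTU21, GSTU22 and GSTU23 follow each other, with 0 genes between GSTU20 and GSTU21 and 0 between GSTU22 and GSTU23. Within this run GSTU20 was the only member above the percentile on any array. GSTU25 and GSTU26 are also adjacent, with 0 genes between them, and there GSTU26 was well above the percentile in young pods while GSTU25 was under it in both groups. GSTU15 and GSTU16 lie with 3 genes between them, and both could be measured in young pods. GSTU15 was called lower and GSTU16 did not pass, and the difference between their changes was not tested. Tau-class neighbours are alike in sequence, and the probe sequences were not used here, so binding of a relative's transcript was not tested. All 11 probe sets carry the plain suffix that Affymetrix gives to sets meant for a single gene.

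Other genes of glutathione chemistry were few under their own names. Of 25 genes of the phi, zeta, theta and lambda classes, the dehydroascorbate reductases and a relative, 3 had a singly named probe set and 1 was tested. This was GSTL3 (AT5G02790), of the lambda class, with a signal of 444.3, 493.2 and 417.6 in young and 299.6, 510.5 and 376.4 in old pods. GSTL3 did not pass (log2 change -0.22, SE 0.23, limma adjusted p = 0.526). The phi-class genes GSTF4 and ATGSTF13 were under the percentile on all arrays, at 1.0 to 11.9 and 14.5 to 31.9.

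Of 16 genes of glutathione synthesis, recycling and breakdown, both named genes were glutathione reductases, which return oxidised glutathione to its reduced form. GR1 (AT3G24170), the cytosolic enzyme, had a signal of 436.2, 294.8 and 247.9 in young and 602.6, 739.3 and 808.4 in old pods. It rose by a log2 change of 1.17 (SE 0.25, limma adjusted p = 0.0143), and that call was lost on leaving out replicate 2 of either group or replicate 3 of the old pods (adjusted p 0.0536 to 0.0569), on the hybridisation control scale and in the ordinary test. GR (AT3G54660), the organellar enzyme, stayed between 181.7 and 224.7 on all 6 arrays and did not pass (log2 change 0.04, SE 0.18, limma adjusted p = 0.893). The 12 listed detoxification partners and regulators had no singly named probe set and were not assessed. They were vacuolar transporters, oxophytodienoate reductases and TGA-type regulators, with CYP81D11, SCL14 and NPR1.

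Whole pods hold several tissues, and fewer cells of a type and less RNA per cell cannot be told apart in these samples. Of 9 listed seed genes 2 had a named probe set, and both moved with pod age. Their summed signal was 1304 to 2731 in young and 220.8 to 3748 in old pods. BAN of the seed coat fell from 1289.1 or more on each young array to 46.8 or less on each old array. The storage protein gene PAP85 rose from at most 25.9 on the young arrays, all under their percentile, to 3700.8, 214.9 and 210.1 on old arrays 1 to 3. The 2 seed genes moved in opposite directions, so a member that moved either way would match 1 of them. Old replicate 1 was the brightest old array for PAP85, BAN (46.8, against 8.2 and 10.7), GSTU15, GSTU22, GSTU23, GSTU26, GSTU27 and GSTU28. It was the dimmest for GSTU16 (287.8, against 405.5 and 403.9), GSTU21 and GSTU25, and neither for GSTU18 and GSTU20. GSTU15, GSTU21, GSTU22, GSTU23 and GSTU25 were under the percentile on every old array, so their order there is not a measured level. Of 8 pod and dehiscence zone genes 3 were named and 1, ADPG1, was higher in old pods (45.1 to 102.2 in young and 901.1 to 1248.2 in old). ALC (log2 change -0.24, limma adjusted p = 0.517) and SPT (0.27, limma adjusted p = 0.555) did not pass. The summed signal of the 3 was 582.3 to 965.2 in young and 1503 to 1850 in old pods, a rise that came from ADPG1. Of 6 senescence genes 3 were named and all 3 were higher (113.1 to 135.2 and 380.9 to 684.9). SAG101 and WRKY6 were under the percentile on all young arrays, as was PAP85, and BAN was above it on only 1 old array. The part of these tissues in the GSTU changes was not tested. The pollen gene AT5G45880 did not pass, the root gene PYK10 was under the percentile on all arrays, and the listed petal and leaf genes had no named probe set.

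Some differences between arrays ran across the groups and others ran along with them. The median signal was 49.5 to 52.9 on young and 39.5 to 49.6 on old arrays. Within each replicate number it was lower on the old array, as was the 40th percentile. The mean log2 signal of 9 hybridisation controls was 9.40 to 9.52 on the replicate 1 arrays and 7.66 to 8.29 on the others, in both groups. The log2 ratio of the 3 prime to the 5 prime probe set, a sign of RNA integrity, separated the groups for actin, at 3.40 to 3.79 on old and 3.05 to 3.19 on young arrays. It overlapped for GAPDH (1.91 to 3.75 on old, 2.56 to 3.98 on young) and ubiquitin (1.24 to 2.59 on old, 1.74 to 2.27 on young). For each of these genes the 3 prime signal was the higher on every array. Probe sets differ in how well they bind, so that alone does not show a bias to the 3 prime end, which was not tested. Actin ratio and pod age cannot be told apart on these arrays. In the replicate 1 pair the log2 changes of GSTU20 and GSTU26 were 1.86 and -1.62, and GSTU15 was at least 1.96-fold lower. Within replicates 2 and 3 alone GSTU20 was at 2.67 (limma adjusted p = 0.0109). There all old arrays were under the percentile for GSTU15 and GSTU26, which were at least 3.32-fold and at least 4.36-fold lower. Centring each array on its median raised the median change of all tested probe sets by 0.26 and turned the split of calls from 1382 higher and 1763 lower to 1890 higher and 1138 lower, while the change of GSTU20 became 2.66, and GSTU15 and GSTU26, taken from the signals as they stand, were at -2.52 and -2.59.

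**Figure D4:**
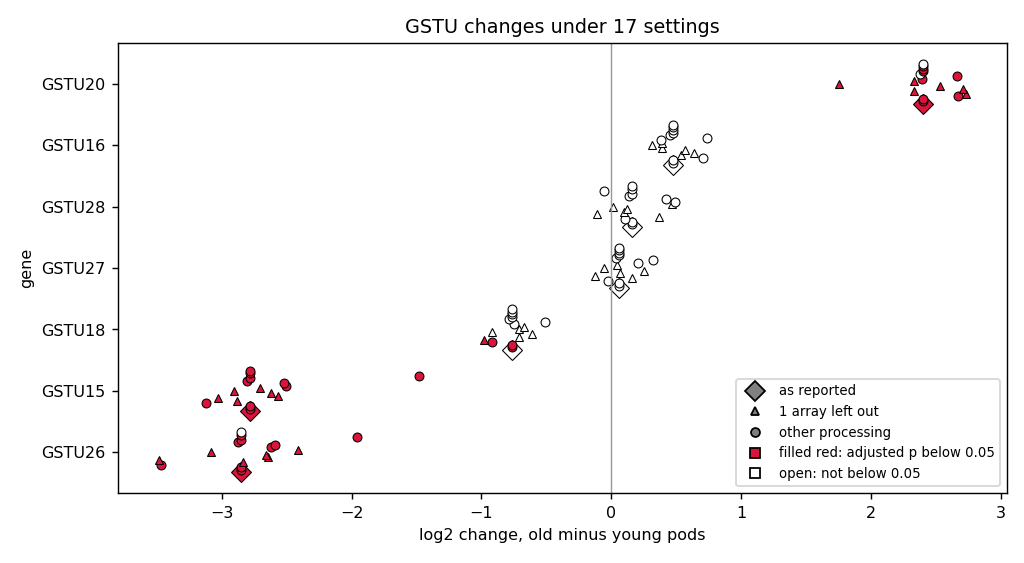
Log2 change, old minus young pods, of the 7 tested GSTU genes (horizontal axis) as reported (diamonds), with 1 array left out (triangles) and under other processing (circles), filled red where the adjusted p was below 0.05. GSTU20 stays above 0, GSTU15, GSTU18 and GSTU26 stay below 0, and GSTU27 and GSTU28 fall on both sides. The values of GSTU15 and GSTU26 nearest to 0, -1.48 and -1.96, are the ones with signals raised to the percentile.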

How the data were processed

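The deposited values are intensities on a linear scale, 1 signal per probe set and array, made by the authors with MAS5, per the submitters' processing notes, which give no version. No detection calls were used here. Each array had a 2% trimmed mean of 100.0. Probe sets were named from GEO's platform annotation, with symbols and gene order checked against TAIR10.1, and the members, lists and alternatives were chosen with earlier results of these data known. Every member is named, and so are the genes with a probe set in the other glutathione lists. Marker lists are given by counts and sums, with some of their genes named.

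Signals under 0.1 were set to 0.1 and taken as log2. The 2 ages were compared by limma 3.58.1 under R 4.3.3 (variance trend, no block, 14277 probe sets tested, Benjamini-Hochberg adjustment over all of them, two-sided). The percentile stands in for detection calls. On simulated arrays with 14277 probe sets, 200 of them changed, 15.4% of the 2-fold and 64.6% of the 4-fold changes were recovered, with 5.11% false among the calls. The measured arrays had far more calls, 3145, and recovery after adjustment depends on that share. The simulated spread was also independent between arrays, without the replicate 1 difference. These rates therefore may not apply to the measured arrays.

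Same-numbered young and old arrays deviated together from their group means (r = 0.286, 0.113 and 0.119). Deviations cancel out within a group, so these values are not independent, and they do not settle whether the numbers pair the samples. The block by replicate number was used only as an alternative setting. Replicates of a group correlated at 0.858 or more and none were identical. The 6 arrays limit the precision. The promoter motif search named in the design was not run, since no sequences were at hand.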

Additional observations from a re-analysis of the deposited data

How the results depend on the processing

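Each of the 7 tested GSTU genes, GSTL3, GR1 and GR was recomputed in 16 alternative settings. In 140 of these 160 values the direction and the side of the threshold stayed, in 8 a call ended (2 for GSTU20, 1 for GSTU26 and 5 for GR1), in 4 GSTU18 passed, and 8 changed sign, all in genes that did not pass. Those were GSTU27 in replicates 2 and 3 (-0.0248) and with single arrays left out (-0.13 to 0.25), GSTU28 with raised signals (-0.0579) and with single arrays left out (-0.11 to 0.47), GSTL3 with median centring (0.0374), and GR in replicates 2 and 3 (-0.0376) and with single arrays left out (-0.0137 to 0.14). The count of GSTU genes called was 3, 4 with the replicate block (which changed no GSTU call but that of GSTU18), with the term for replicate 1 and in replicates 2 and 3 alone, 2 with hybridisation control scaling, 1 in the ordinary two-sample test, and 3 to 4 with single arrays left out. The cause was not tested. Over all probe sets 3145 were called, 3480 with the replicate block, 4197 with the term for replicate 1, 3936 in replicates 2 and 3 alone, 628 with hybridisation control scaling, 1360 in the ordinary test, and 1736 to 3602 with single arrays left out (1736 without old replicate 2, 1812 without young replicate 2, 1975 without young replicate 3 and 2047 without old replicate 3). Signals under the percentile limit what can be said of 4 members in both groups, of GSTU15 on all old arrays, of GSTU26 on 2 of 3 old arrays, and of GSTU28, which was above it on 1 young and 2 old arrays.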
